A study of Mus musculus with 9 samples.

Results

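The regions described here were listed as enriched for H3K27me3 in a single Kdm6a-knockout line of mouse pancreatic cancer, and in neither the other knockout line nor the wild-type line. The 3 H3K27me3 region lists were merged wherever regions shared at least 1 bp on chromosomes 1 to 19, which gave 30751 merged regions. A merged region was kept when exactly 1 knockout list overlapped it and the wild-type list did not. This left 13327 regions, 43.3% of all, with 6497 in the female knockout line (female KO-only) and 6830 in the male knockout line (male KO-only). They make up 21.1 and 22.2% of the merged regions. The regions were chosen by the H3K27me3 lists themselves, so these counts and every H3K27me3 width and density below are descriptions. The H3K4me3 and H3K27ac lists took no part in the choice.

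Kdm6a is an X-linked gene whose product is a demethylase acting on lysine 27 of histone H3. The opposing enzyme is the Polycomb repressive complex with its catalytic subunit Ezh2, and the H3K27me3 it deposits spreads over silenced genes in domains that can be broad. H3K27ac sits on the same lysine and marks active promoters and enhancers, so 1 histone tail cannot carry both there, while a population of cells can show both over 1 region. H3K4me3 marks promoters.

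Chromatin immunoprecipitation and sequencing (ChIP-seq) of the 3 marks was done in a female KDM6A-KO line, a male KDM6A-KO line and a male KDM6A-WT line, with 1 library for each mark and line, 9 in all. Per the labels, the lines came from pancreas of mice of mixed C57BL/6-SV129 strain and grew untreated in F12/DMEM with EGF. No source used here gives the other tumour alleles or the driver of the deletion, and the loss of Kdm6a itself was not checked. Each group is 1 line with 1 library per mark, and a female WT line was not analysed here. No p-values are given for that reason, and genotype, line and, for the female KO cells, sex cannot be told apart.

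The H3K27me3 libraries differed in the number of reads in regions, which stands in for depth here because total reads are not given. Reads in regions numbered 18507923 in female KO cells, 4811961 in male KO cells and 2396174 in WT cells. Over the 101 Mb of autosomes that all 3 lists held, mean density was 67.1, 23.1 and 17.6 reads per kb. Multiplied by the ratio of these means to bring each library to WT depth, the median density was 8.496 reads per kb for female KO-only regions and 11.1 for male KO-only regions. The lowest 5% of WT regions lay at or below 11 reads per kb. At WT depth 1040 of the 6497 female KO-only regions (16.0%) and 3599 of the 6830 male KO-only regions (52.7%) reached that level. With only the KO regions at or above it kept in the lists, there were 1131 female KO-only and 6095 male KO-only regions, of which 1040 and 3599 were among those described here. Lists cut at their own median count gave 3110 and 2929. With the scaled lists the number of female KO-only regions thus fell from 6497 to 1131, and that of male KO-only regions from 6830 to 6095. WT depth here means the WT density within listed regions. Sequencing depth and true differences in H3K27me3 between the lines cannot be told apart in this scaling. Absence from the WT list does not show absence of the mark.

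Female KO-only regions were wider than male KO-only regions. They covered 55.2 Mb with a median width of 6.4 kb (95% interval of the median 6.2 to 6.6 kb), against 30.0 Mb and 3.6 kb (3.6 to 3.8 kb) for male KO-only regions. Regions of WT alone had a median of 2.6 kb. Regions shared by the KO lists alone had a median of 10.6 kb, and regions in all 3 lists 19.8 kb. Merged regions join the regions of all lists that hold them, so shared ones are wider partly by construction. Within each list, single regions found in all 3 lists had medians of 14 kb (female KO), 7 kb (male KO) and 4.4 kb (WT). Regions of that list alone were narrower, at 6.4, 3.6 and 2.6 kb, and a wide region also meets another list more readily. Of the female KO-only regions 34.1% were under 5 kb and 373 (5.74%) spanned 20 kb or more. Of the male KO-only regions 70.9% were under 5 kb and 16 (0.234%) spanned 20 kb or more. At 50 kb or more female KO cells had 26 and male KO cells 1.

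**Figure D1:**
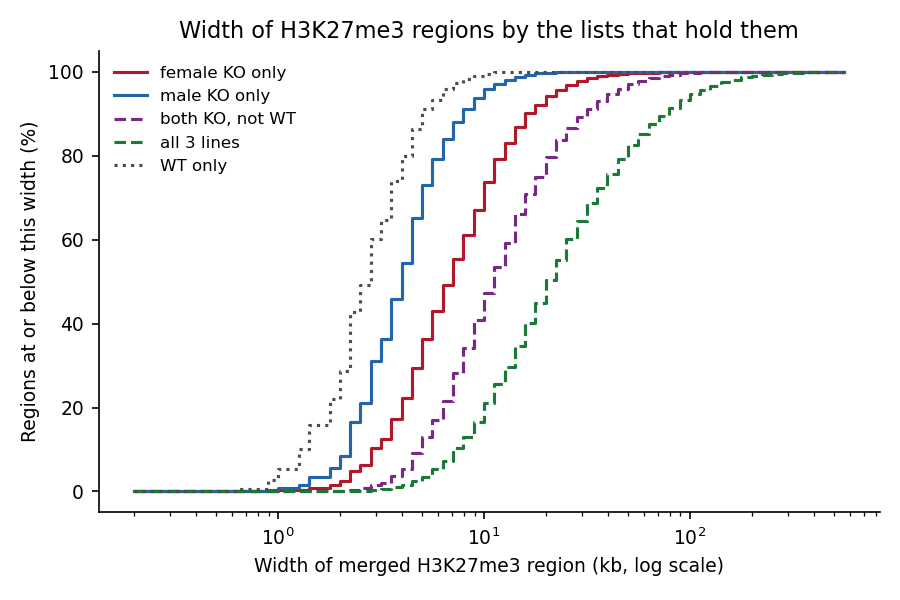
Cumulative share of merged H3K27me3 regions (%, vertical axis) at or below each width (kb, log scale), with 1 curve for each of 5 of the 7 combinations of lists that can hold a region. The male KO-only curve (median 3.6 kb) lies to the left of the female KO-only curve (6.4 kb), and regions in all 3 lines lie farthest right (19.8 kb). A merged region joins the regions of all lists that hold it, so shared regions are wider partly by construction.

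Density was lower over regions of 1 KO list than over regions shared by all 3. In the female KO list, the median was 32.4 reads per kb (95% interval 32.2 to 32.7) for female KO-only regions, against 34.5 for its regions shared with male KO cells alone and 39.2 for its regions found in all 3 lists. In the male KO list it was 14.6 reads per kb (14.5 to 14.7) for male KO-only regions, against 16.2 and 18.04. The ratio to the regions found in all 3 lists was 0.828 in female KO cells and 0.810 in male KO cells. The gap differed by width. Among regions of 5 to 10 kb, female KO-only regions had a median of 31.4 reads per kb and the female KO regions found in all 3 lists 30.9. In the same width class, male KO-only regions had 14.1 and the male KO regions found in all 3 lists 17.0. Narrow female KO-only regions were therefore as dense as shared regions of their size, and narrow male KO-only regions were less dense. At 20 kb or more the medians in the female KO list were 42.0 for female KO-only regions and 56.1 for regions in all 3 lists.

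The other marks set the KO lines apart. H3K27ac of female KO cells overlapped 1387 of the 6497 female KO-only regions, 21.3% (95% Wilson interval 20.4 to 22.4%), while H3K27ac of male KO cells overlapped 86 of the 6830 male KO-only regions, 1.26% (1.02 to 1.55%). Over all merged regions these marks overlapped 12.2 and 13.0%. For H3K4me3 the shares were 14.7% (13.9 to 15.6%) of female KO-only regions in female KO cells and 1.95% (1.65 to 2.30%) of male KO-only regions in male KO cells, against 11.3 and 14.1% of all merged regions. The pooled shares include regions of the other lists. H3K27ac of female KO cells overlapped 21.2% of the regions shared by the KO lists alone and 20.02% of those in all 3 lists, close to the female KO-only share, and its H3K4me3 overlapped more of them, 17.2 and 23.8%. H3K27ac of male KO cells overlapped 20.8 and 22.9%, and its H3K4me3 18.9 and 33.6%, all above the male KO-only shares. These intervals reflect counting error alone, with each region taken as independent. With the depth-scaled lists described above, own-line H3K27ac overlapped 47.9% of female KO-only and 2.82% of male KO-only regions, and own-line H3K4me3 35.9 and 4.003%. Those lists keep only the denser KO regions by construction, and their shares over all merged regions are not given here.

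Shares of length, in which wide regions do not count as marked for a short overlap, also put female KO-only above male KO-only regions. H3K27ac of female KO cells lay over 12.8% of the length of female KO-only regions, and over 8.01% of the autosomes, a ratio of 1.60. H3K27ac of male KO cells lay over 0.654% of the length of male KO-only regions and 5.87% of the autosomes, a ratio of 0.112. For H3K4me3 the ratios were 1.54 and 0.314. Both active marks thus covered more of the female KO-only regions than of the autosomes, and less of the male KO-only regions. Regions in all 3 lists had 4.03% of their length under H3K27ac of female KO cells and 3.31% under that of male KO cells. For H3K4me3 of female KO cells the share was 3.22%, below the 5.59% of female KO-only regions. Counted by overlapped regions, that order was the reverse, at 23.8 and 14.7%.

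The marks were also present in the lines whose H3K27me3 lists do not hold the region. H3K27ac of male KO cells overlapped 21.5% of the female KO-only regions and H3K27ac of WT 18.5% (17.6 to 19.5%), or 40.4% with the depth-scaled lists. H3K27ac was present in all 3 lines at 749 female KO-only regions, in female KO cells alone at 312 and in no line at 4533. For H3K4me3 the numbers were 748, 106 and 5319. At male KO-only regions, H3K27ac of female KO cells overlapped 1.42% and that of WT 0.732% (0.556 to 0.964%), or 2.002% with the depth-scaled lists, and 6666 of the 6830 had H3K27ac in no line. Of the 1387 female KO-only regions with H3K27ac in female KO cells, 749 thus had it also in both lines with no listed H3K27me3 region there, and of the 956 with H3K4me3, 748 did.

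**Figure D2:**
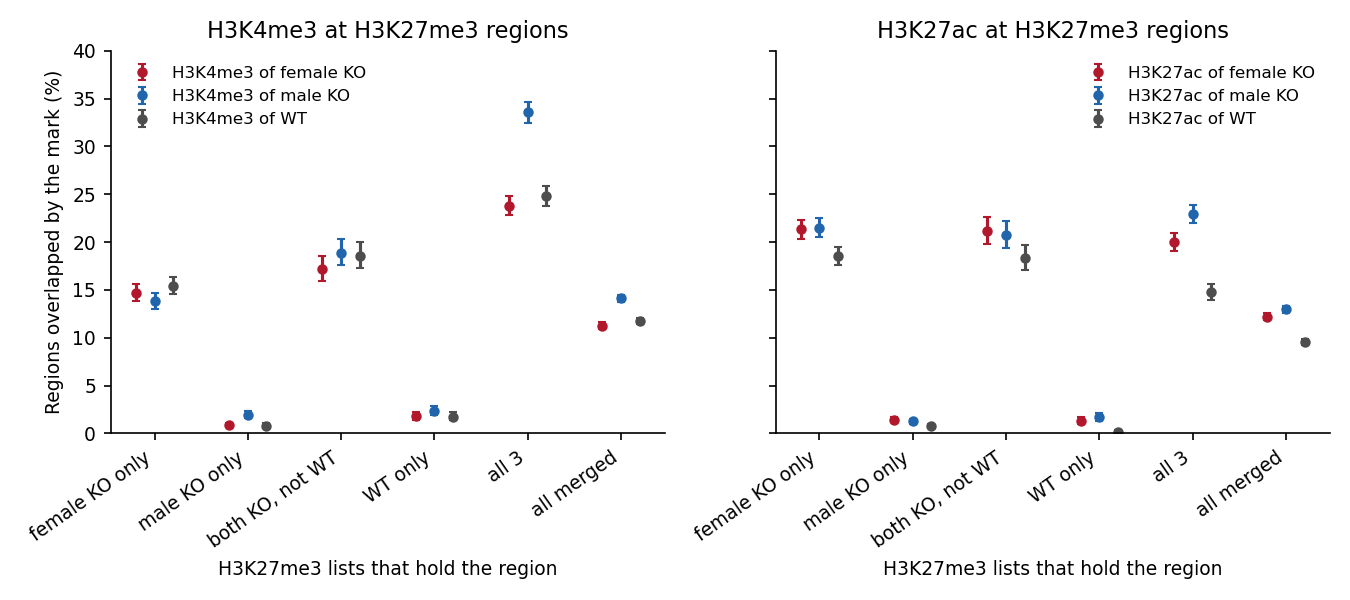
Share of H3K27me3 regions (%, vertical axis) overlapped by H3K4me3 (left) and H3K27ac (right) of each line, by the H3K27me3 lists that hold the region; bars are 95% Wilson intervals. Female KO-only regions sit near 21.3% for H3K27ac of female KO cells and male KO-only regions near 1.26% for that of male KO cells, close to regions of WT alone.

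For H3K27ac the contrast with all merged regions held within each class of width. All merged regions include those of single lists. Under 5 kb, 4845 of the 12249 merged regions were male KO-only and 3615 were of WT alone. Over all widths, H3K27ac of female KO cells overlapped 1.42 and 1.29% of these 2 kinds of region. Shared regions of the same width were not compared separately. H3K4me3 of female KO cells overlapped 31.9% (27.4 to 36.8%) of female KO-only regions of 20 kb or more, against 32.9% of all merged regions. In the narrower classes its share of female KO-only regions was above that of all merged regions. Among regions under 5 kb, own-line H3K27ac overlapped 8.18% of female KO-only regions (7.11 to 9.39%) and 2.48% of all merged regions of that width. For male KO-only regions it overlapped 0.908% (0.677 to 1.22%), against 2.81% of all merged regions. At 10 to 20 kb it overlapped 35.2% of female KO-only regions, against 19.5% of all merged regions, and 6.18% of male KO-only regions, against 20.1%. None of the 16 male KO-only regions of 20 kb or more met H3K27ac or H3K4me3 of male KO cells, which allows a share of up to 19.4%.

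Among female KO-only regions, those with more H3K27me3 reads per kb met H3K27ac more often. In the lowest quartile, 18.4 to 28.2 reads per kb, 76 of 1625 (4.68%) overlapped H3K27ac of the same line. In the highest, from 38.1 reads per kb, 709 of 1624 (43.7%) did. Median width was 5.4 kb in the lowest quartile and 8.8 kb in the highest, and the share of length under H3K27ac was 2.13 and 23.2%. In male KO-only regions the share overlapped was 0.351% in the lowest quartile and 2.99% in the highest. Their median width was 4.2 kb in the lowest quartile and 2.8 kb in the highest. The densest H3K27me3 regions of female KO cells alone were thus those that most often overlapped H3K27ac regions of that line. A control library was not examined, so an artefact in these reads was not tested. Female KO-only regions with both H3K4me3 and H3K27ac in that line numbered 737, with a median of 40.6 H3K27me3 reads per kb, against 31.0 in the 4891 regions with neither mark.

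**Figure D3:**
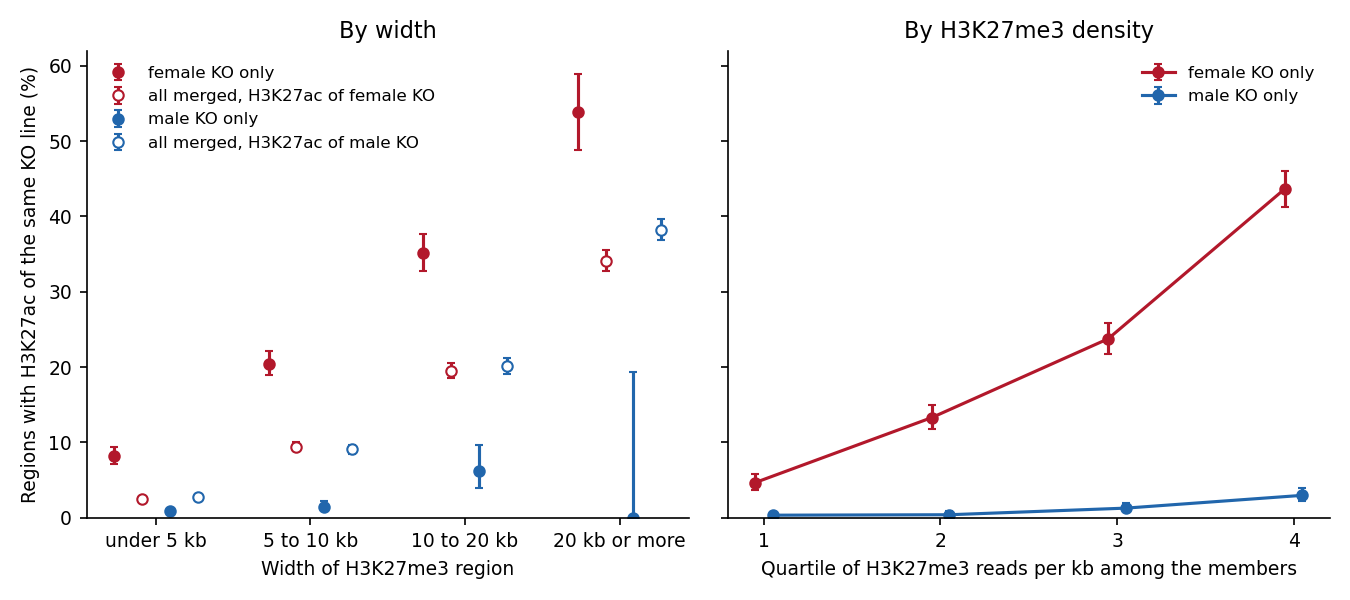
Share of regions (%, vertical axis) with H3K27ac of the same KO line, by width class (left; open points are all merged H3K27me3 regions) and by quartile of H3K27me3 reads per kb among the female KO-only or male KO-only regions (right); bars are 95% Wilson intervals. Female KO-only regions lie above all merged regions in each width class and male KO-only regions below them, and the female KO-only share reaches 43.7% in the densest quartile. All merged regions include those of single lists.

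Whether H3K27ac differed from WT where the H3K27me3 list of 1 KO line alone held a region was examined by presence first. H3K27ac was in female KO cells and not in WT at 537 female KO-only regions (8.27%, 7.62 to 8.96%), against 5.2% of all merged regions. It was in WT and not in female KO cells at 355 (5.46%, 4.94 to 6.04%), against 2.54% of all merged regions. Both shares were above those of all merged regions. Of the 1205 female KO-only regions with H3K27ac in WT, 29.5% (26.96 to 32.1%) lacked it in female KO cells, against 26.6% (25.03 to 28.2%) of all merged regions with H3K27ac in WT. None of these 1205 regions is in the male KO H3K27me3 list, and 21.3% (19.1 to 23.7%) of them lacked H3K27ac in male KO cells, against 18.9% (17.5 to 20.4%) of all merged regions. In both KO lines the interval overlapped that of all merged regions. The 1205 regions are part of the 2937 merged regions with H3K27ac in WT, so that overlap does not show the shares to be alike. In regions of all 3 lists the share was 22.2% (19.8 to 24.9%) in female KO and 14.1% (12.2 to 16.4%) in male KO cells. For regions shared by the KO lists alone it was 27.2 and 20.3%. All these comparisons use the same WT list.

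Male KO-only regions gave few such cases. H3K27ac was in male KO cells and not in WT at 60 of them (0.878%, against 5.23% of all merged regions) and in WT and not in male KO cells at 24 (0.351%, against 1.8%). Of the 50 male KO-only regions with H3K27ac in WT, 24 (48.0%, 34.8 to 61.5%) lacked it in male KO cells, against 18.9% of all merged regions with H3K27ac in WT. In female KO cells, whose H3K27me3 list does not hold them, 21 (42.0%, 29.4 to 55.8%) lacked it, against 26.6%. Both shares were above those of all merged regions. H3K4me3 was in the male KO list and not WT at 84 male KO-only regions (1.23%, against 3.62% of all merged regions) and in WT and not male KO at 7 (0.102%, against 1.25%). At female KO-only regions, H3K4me3 was in the female KO list and not WT at 137 (2.11%, against 1.53% of all merged regions) and in WT and not female KO at 182 (2.801%, against 2.03%).

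Where H3K27ac regions were present in both the KO and the WT list, their reads were compared as log2 ratios of KO over WT. The median over all such regions was subtracted (1.63 for female KO and 1.43 for male KO). Reads were those of whole H3K27ac regions as each list drew them, and 1 bp of overlap placed a region on an H3K27me3 region. The ratios therefore also take in reads outside the H3K27me3 regions and do not measure H3K27ac within them. H3K27ac of female KO cells covered a median of 3.4 kb of the female KO-only regions it overlapped. H3K4me3 was counted in the same way. In female KO cells, 235 of 1177 H3K27ac regions on female KO-only H3K27me3 regions had at least 2-fold fewer reads than in WT, 19.97% (17.8 to 22.3%), against 12.8% of all 12295 regions. At least 2-fold more reads were found in 10.3%, against 10.1% of all. The median log2 ratio was -0.15 (-0.22 to -0.09). In male KO cells, whose H3K27me3 list does not hold those regions, 13.9% (12.1 to 15.8%) of 1349 had at least 2-fold fewer reads, against 11.2% of all, and the median was -0.08 (-0.13 to -0.03). The share with fewer reads was thus above that of all regions in both KO lines, whether or not the H3K27me3 list of the line held the region. Both ratios share the WT library, and the difference between the KO lines was not tested. The H3K27ac regions on female KO-only regions were wider than all, at a median of 12.6 kb against 9.8 kb, and the part of width in these ratios was not tested.

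Few H3K27ac regions lay on male KO-only regions. In male KO cells, 15 of 58 had at least 2-fold fewer reads than in WT, 25.9% (16.3 to 38.4%), against 11.2% of all, and 9 had at least 2-fold more (15.5%, against 6.95% of all). In female KO cells, 2 of 58 had at least 2-fold fewer, 3.45% (0.951 to 11.7%), against 12.8% of all, and 9 (15.5%) had at least 2-fold more. The median log2 ratio was -0.27 (-0.78 to 0.10) in male KO cells and 0.24 (-0.20 to 0.42) in female KO cells, and both intervals include 0. The median width of these H3K27ac regions was 14.5 kb in the male KO comparison, against 8.8 kb for all. For H3K4me3, 142 of 997 regions on female KO-only regions (14.2%, 12.2 to 16.5%) had at least 2-fold fewer reads in female KO cells than in WT, against 7.96% of all, and 3.61% had at least 2-fold more, against 4.38%. On female KO-only regions in male KO cells, 4.15% (3.12 to 5.51%) of 1084 had at least 2-fold fewer, against 2.87% of all. In male KO cells the H3K4me3 regions on male KO-only regions lay beyond 2-fold more often in both directions, with 20 of 59 (33.9%, 23.1 to 46.6%) at least 2-fold higher, against 9.11% of all, and 6 of 59 (10.2%) at least 2-fold lower, against 2.87%. In female KO cells, 9 of 47 H3K4me3 regions on male KO-only regions (19.1%, 10.4 to 32.5%) had at least 2-fold more reads, against 4.38% of all.

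**Figure D4:**
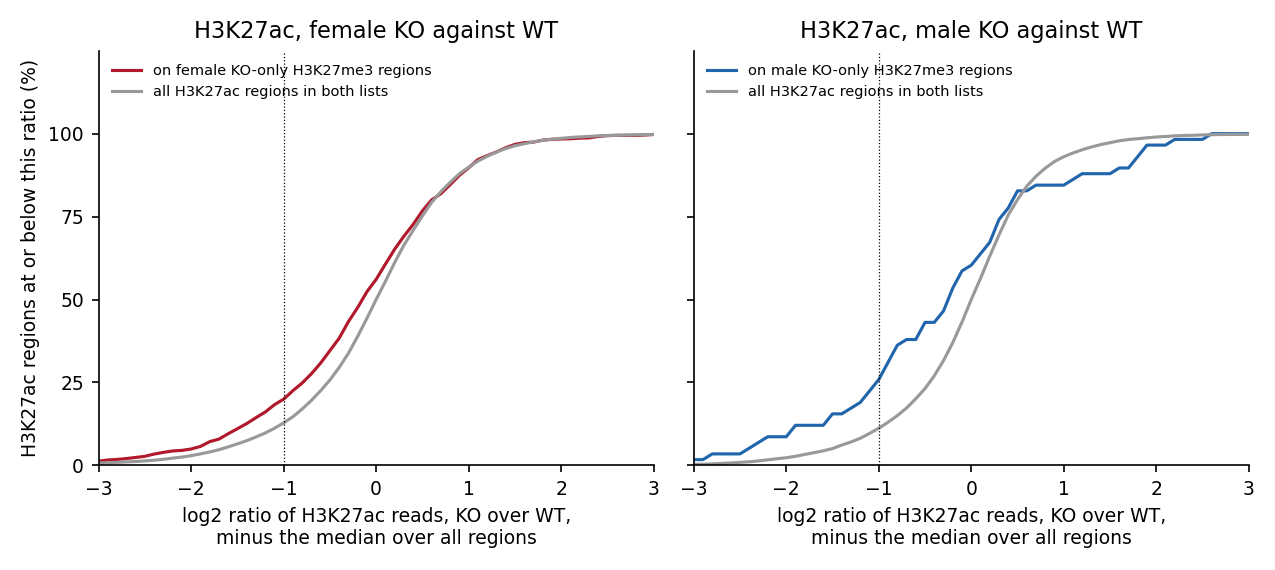
Cumulative share of H3K27ac regions (%, vertical axis) at or below each log2 ratio of H3K27ac reads, KO over WT, centred on the median of all H3K27ac regions in both lists (grey); the coloured curves are H3K27ac regions on female KO-only (left, 1177 regions) and male KO-only (right, 58 regions) H3K27me3 regions. At the dotted line, which marks 2-fold fewer reads, the coloured curves reach 19.97 and 25.9% and the grey curves 12.8 and 11.2%.

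The chromosomes richest in such regions differed between the KO lines. Female KO-only regions numbered 2.63 per Mb over the autosomes, with the most on chromosome 4 (695 regions, 4.47 per Mb) and chromosome 9 (3.48 per Mb) and the fewest on chromosome 15 (1.06 per Mb) and chromosome 1 (1.71 per Mb). Male KO-only regions numbered 2.76 per Mb, with the most on chromosome 13 (603 regions, 5.01 per Mb) and chromosome 7 (4.96 per Mb) and the fewest on chromosome 10 (0.869 per Mb) and chromosome 19 (1.12 per Mb). The highest value was 4.20 times the lowest in female KO cells and 5.77 times in male KO cells. Chromosome 10 held 2.34 female KO-only and 0.869 male KO-only regions per Mb, and chromosome 15 held 1.06 and 3.32.

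Chromosome 4 had the largest share of female KO-only regions and the fewest regions of WT alone. Of its 1608 merged regions 43.2% were female KO-only and 11 were of WT alone. Male KO-only regions made up 27.3%, below chromosomes 13, 7, 11 and 9, and their 2.82 per Mb was close to the 2.76 of all autosomes. H3K27me3 density in shared bins on chromosome 4, relative to the median autosome, was higher than in WT by 0.52 on the log2 scale in female KO cells and by 0.31 in male KO cells. The other marks moved with it, by 0.34 for H3K4me3 and 0.35 for H3K27ac in female KO cells, and by 0.19 and 0.12 in male KO cells, where H3K27ac on chromosome 13 was as high, at 0.13. All 3 marks thus had more reads on chromosome 4 in both KO lines, and the part of this in the number of regions was not tested. Joint shifts were not particular to chromosome 4. In female KO cells, H3K27me3, H3K4me3 and H3K27ac on chromosome 6 were higher by 0.28, 0.19 and 0.15. In male KO cells they were higher by 0.11, 0.11 and 0.13 on chromosome 13. On chromosome 1 all 3 marks were lower in both KO lines. Of the 439 male KO-only regions on chromosome 4, 29 overlapped H3K27ac of male KO cells, 6.61% (4.64 to 9.33%), against 57 of the 6391 on the other 18 autosomes, 0.892% (0.689 to 1.15%). For female KO-only regions these shares were 23.2 and 21.1%.

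**Figure D5:**
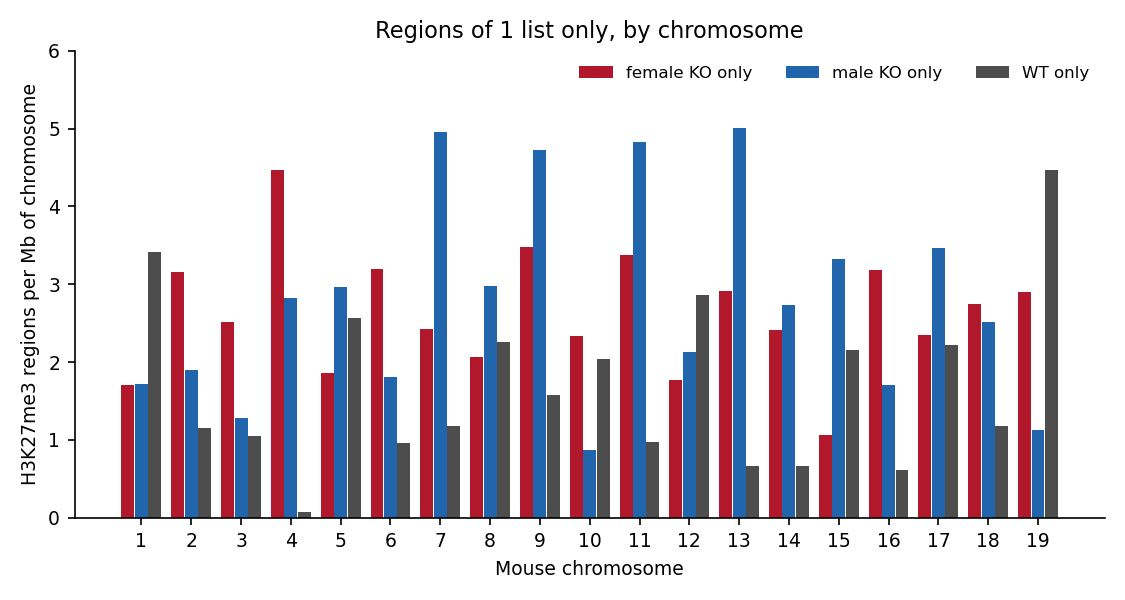
H3K27me3 regions found in 1 list only, per Mb of mm9 chromosome length (vertical axis), for each autosome. Female KO-only regions peak on chromosome 4 at 4.47 per Mb and male KO-only regions on chromosome 13 at 5.01 per Mb, while regions of WT alone are fewest on chromosome 4.

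Within chromosomes, many of the regions lay close to another of their set. The nearest neighbour among female KO-only regions lay at a median of 11.8 kb, and 37.8% had one within 5 kb. Among male KO-only regions it lay at 5.4 kb, and 49.1% had one within 5 kb. Of 494 windows of 5 Mb, 69 held no female KO-only region and 116 no male KO-only region, and the fullest window held 72 and 144. The window with the most female KO-only length, on chromosome 4 from 55000001 to 60000000, held 72 regions over 809 kb and no male KO-only region. The next were on chromosome 4 from 135000001 to 140000000 (608 kb) and chromosome 6 from 50000001 to 55000000 (594 kb), with 0 and 1 male KO-only regions. For male KO-only regions the leading windows were on chromosome 13 from 70000001 to 75000000 (144 regions over 658 kb, with 12 female KO-only regions), chromosome 13 from 55000001 to 60000000 (653 kb) and chromosome 4 from 100000001 to 105000000 (621 kb). The window on chromosome 4 had 5.4 kb of regions in all 3 lists and 84 kb of H3K27ac in male KO cells.

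Female KO-only regions were most numerous in the windows richest in H3K27ac. When 486 full windows were split into 3 groups of 162 by the length of WT H3K27ac, the median number of female KO-only regions was 1.5, 10 and 20 from the poorest to the richest group. The median number of male KO-only regions was 1, 5 and 6, while their totals were 1131, 3133 and 2476, so the richest group held fewer than the middle one. The totals of female KO-only regions were 808, 2084 and 3430. Across the windows, the length of female KO-only regions had a Spearman rho of 0.718 and a Pearson r of 0.521 with the length of WT H3K27ac. For male KO-only regions these were 0.312 and 0.0657. The relation was not particular to H3K27ac. The rho of female KO-only length was 0.757 with WT H3K4me3 length and 0.740 with the length of regions in all 3 lists. For male KO-only length these were 0.377 and 0.537. The windows share the same libraries, so these are descriptions. A female KO-only region lay at a median of 16.8 kb from the nearest H3K27ac region of its own line, and a male KO-only region at 160 kb from that of its line. Distances to H3K4me3 regions of the own line were 26.8 and 144 kb.

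Most of the regions lay more than 5 kb from any listed H3K27me3 region of the other lines. Female KO-only regions lay at a median of 22.0 kb from the nearest region of either other H3K27me3 list, with 1363 (21.0%) within 5 kb. Male KO-only regions lay at 20.2 kb, with 1639 (24.0%) within 5 kb. The female KO-only regions were nearer to the male KO list (median 30.0 kb) than to the WT list (49.0 kb), and the male KO-only regions were nearer to the WT list (30.2 kb) than to the female KO list (86.5 kb). The male KO, WT and female KO lists held 28184, 26240 and 19387 autosomal regions. Distances depend on these numbers and were not adjusted for them. At the border of the rule, 305 female KO-only regions lay within 1 kb of another list without overlap (median width 4.8 kb, 31.3 reads per kb), and 190 female KO regions were left out for an overlap of at most 1 kb (4.2 kb, 30.3 reads per kb). In male KO cells these numbered 431 (3.6 kb, 15.3 reads per kb) and 526 (2.8 kb, 15.9 reads per kb).

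Of the 5 longest female KO-only regions, the first and the third had the most H3K27ac of their own line. The longest, on chromosome 6 from 112810401 to 112957000 (mm9, as are all coordinates here), spanned 146.6 kb with 9229 H3K27me3 reads, 63.0 per kb. H3K27ac covered 35.8 kb of it in female KO cells, 38.0 kb in male KO cells and 20.6 kb in WT. On chromosome 6 from 120148201 to 120266000, 117.8 kb, H3K27ac covered 29.8 kb in female KO cells and 19 kb in male KO cells, and none in WT. In both, H3K27ac lay within the H3K27me3 region of the same line.

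Other long female KO-only regions had more H3K27ac in the lines whose H3K27me3 lists do not hold them. On chromosome 8 from 128009001 to 128097600, 88.6 kb with 2940 reads, H3K27ac covered none in female KO cells, against 34.6 kb in male KO cells and 28.6 kb in WT. H3K4me3 covered 2.2 kb there in female KO cells, 7.0 kb in male KO cells and 10.8 kb in WT. On chromosome 19 from 41410401 to 41480800, 70.4 kb with 4170 reads, H3K27ac covered none in female KO cells, 21.6 kb in male KO cells and 29.4 kb in WT, the most WT H3K27ac of the female KO-only regions. On chromosome 12 from 74684201 to 74809800, 125.6 kb with 5716 reads, it covered 1.6 kb in female KO cells and 15.0 kb in each of the male KO and WT lines. On chromosome 15 from 37125401 to 37173200, 47.8 kb, it covered 8.0 kb in female KO cells, 30.2 kb in male KO cells and 24.8 kb in WT. In these 4 regions H3K27ac was less extensive in female KO cells than in the other lines. The regions on chromosomes 8, 15 and 19 were chosen for their WT H3K27ac, so they are examples and not a count. The fourth longest, on chromosome 2 from 165505201 to 165600600, 95.4 kb with 5031 reads, met no H3K4me3, and H3K27ac covered none of it in female KO cells, 2.4 kb in male KO cells and 4.2 kb in WT.

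The densest female KO-only regions of at least 5 kb carried H3K27ac of their own line. The densest, on chromosome 2 from 30650001 to 30662400, held 1295 reads over 12.4 kb, 104 per kb, and lay wholly under both H3K4me3 and H3K27ac of female KO cells. H3K27ac covered 8.4 kb of it in male KO cells and 0.6 kb in WT. On chromosome 4 from 140902001 to 140910400, 8.4 kb at 98.8 reads per kb, H3K27ac covered 8.0 kb in female KO cells and none in the other lines, with no H3K4me3. On chromosome 8 from 122264801 to 122284000, 19.2 kb at 95.4 reads per kb, H3K27ac covered 10.4 kb in female KO cells, none in male KO cells and 6.2 kb in WT. In these 3 regions H3K27ac was most extensive in female KO cells. The most H3K4me3 of female KO cells lay in regions on chromosome 7 from 53025001 to 53056200 (17.8 kb of 31.2 kb), chromosome 11 from 102078601 to 102104600 (16.6 kb of 26.0 kb) and chromosome 11 from 98590801 to 98616200 (14.6 kb of 25.4 kb). All 3 carried H3K27ac and H3K4me3 in each line.

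The longest male KO-only regions carried none of the other marks in their own line. The longest, on chromosome 11 from 3030601 to 3100000, spanned 69.4 kb with 8969 reads. At 129 reads per kb it was also the densest of the male KO-only regions, and H3K4me3 of female KO cells covered 2.4 kb of it. The next 4 were on chromosome 4 from 114372801 to 114405600 (32.8 kb), chromosome 4 from 111164401 to 111196600 (32.2 kb), chromosome 14 from 30593601 to 30622600 (29.0 kb) and chromosome 4 from 103098401 to 103126200 (27.8 kb). They held 448 to 599 reads, 15.4 to 18.6 per kb, and met neither mark in any line. The region on chromosome 11 thus stood apart from the other long male KO-only regions in both width and density. Its sequence and a control library were not examined, so an artefact of read mapping there was not tested.

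Few male KO-only regions carried active marks. After the region on chromosome 11, the densest of at least 5 kb were on chromosome 7 from 38968001 to 38983600 (39.5 reads per kb) and chromosome 15 from 26233801 to 26239800 (33.7 reads per kb). The first carried 6.2 kb of H3K27ac in male KO cells, 4.8 kb in female KO cells and 2.4 kb in WT. The region with the most WT H3K27ac, on chromosome 18 from 11045201 to 11060200, 15.0 kb with 383 reads, had H3K27ac over 7.2 kb in male KO cells, 12.8 kb in female KO cells and 13.2 kb in WT, and H3K4me3 over 6.6 kb, 9.6 kb and 13.2 kb. On chromosome 18 from 64489801 to 64497600, 7.8 kb with 130 reads, H3K27ac covered none in male KO cells, 7.6 kb in female KO cells and 6.6 kb in WT. On chromosome 2 from 169459001 to 169464800, 5.8 kb with 114 reads, it covered 2.2 kb in male KO cells and all 5.8 kb in the female KO and WT lines. In these 3 regions, chosen for WT H3K27ac, both active marks reached less far in male KO cells than in either other line. Other regions with much H3K4me3 of male KO cells were on chromosome 3 from 30409401 to 30415400, where it covered 5.0 kb of 6.0 kb, and chromosome 15 from 98505001 to 98517400, where it covered 4.8 kb of 12.4 kb.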

How the data were processed

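For each library the authors deposited 1 headerless list of enriched regions, whose whole-number column was taken as the read count. The submitters' processing notes name Bowtie 1.1.2, SICER 1 and mm9, without their settings. Control library, false discovery rate and total reads: not given in the sources used here. Totals of reads in regions stand in for depth and are not total reads. Borders lay on a 200 bp grid and coordinates are 1-based. Regions that touch without sharing a base were not merged. The members and lists were chosen with earlier results of these data known. Named regions are the 5 longest of each KO line, the 3 densest of at least 5 kb, the 3 with the most WT H3K27ac, the 3 with the most own-line H3K4me3 and the 3 windows with most member length, with the chromosomes of the 2 highest and 2 lowest numbers per Mb. Tables were computed in Python 3.11.15 with pandas 2.3.3, numpy 2.4.6 and scipy 1.17.1, and drawn with matplotlib 3.10.9. Chromosome lengths came from GenomeInfoDb 1.38.1. Intervals are 95% Wilson for shares and exact order-statistic for medians. bedtools 2.31.1 gave the same numbers of members (difference 0). The overlap code was tested on simulated lists. Genes and sequences of the regions were not analysed here, because the gene table belongs to another assembly. Alternatives were stricter lists, an overlap of 50%, a margin of 5 kb and depth-scaled lists.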

Additional observations from a re-analysis of the deposited data

Results flagged for a closer look

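Chromosome X was outside the choice of regions. H3K27me3 in female KO cells covered 9.60% of it, against 0.186% in male KO cells and 0.0848% in WT cells. On the autosomes the coverage was 13.3% in female KO cells, 9.60% in male KO cells and 5.85% in WT cells. Of 1972 merged regions on X, 1900 were in the female KO list alone, 7 in the male KO list alone and 0 in the WT list alone. The female KO-only regions there had a median width of 5.4 kb and numbered 11.4 per Mb. This result is given because a signal outside the comparisons exceeds its level in WT. The KO lines share the genotype and differed here, and sex and line cannot be told apart in that difference.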

How the results depend on the processing

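No paired analysis was possible because each mark and line has 1 library. Under each alternative own-line H3K27ac and H3K4me3 overlapped a larger share of female KO-only than of male KO-only regions, and female KO-only regions were the wider. With depth-scaled lists (KO regions kept where scaled density reached 11 reads per kb), there were 1131 female KO-only regions, with a median width of 9.6 kb; H3K4me3 of that line overlapped 35.9%, its H3K27ac 47.9% and WT H3K27ac 40.4%. Male KO-only regions then numbered 6095, with 4.003, 2.82 and 2.002%, and 3599 of them were among the 6830 described above. Lists cut at their own median count gave 3110 female KO-only regions (13.0 kb; 24.2, 34.9 and 30.5%) and 2929 male KO-only regions (7.6 kb; 5.77, 2.83 and 1.78%). With presence counted from 50% of the merged region, female KO-only regions had a median of 8.2 kb and shares of 17.2, 22.8 and 19.7%, and male KO-only regions a median of 4.0 kb and an H3K4me3 share of 2.70%. Without regions within 5 kb of another list, female KO-only regions had a median of 6.8 kb and shares of 16.5, 24.0 and 20.9%. Fewer regions enter the stricter lists by construction, and the depth-scaled lists keep only the denser KO regions. In the densest quartile of the female KO-only regions described above, own-line H3K27ac overlapped 43.7% and H3K4me3 32.6%. The cause of the other shifts was not tested. H3K27ac ratios scaled by total reads in regions, chosen after seeing the data, moved no share with at least 2-fold fewer reads beyond its interval.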
